A study of Mus musculus with 12 samples.

Results

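Processed pseudogenes are copies of messenger RNAs that were reverse transcribed and inserted elsewhere in the genome. They lack the introns and usually the promoter of the parent gene, and many carry changes that prevent translation. Because a recent copy can match its parent base for base, a short read of the parent mRNA may fit the pseudogene equally well, and counting software that estimates abundance divides such a read between them. The count of a processed pseudogene in RNA-seq can therefore hold RNA made from the parent gene, and genes with abundant mRNA, above all those of ribosomal proteins and glycolytic enzymes, have left many copies. In the lens, where fiber cells lose their nuclei and organelles and fill with crystallins, such housekeeping mRNAs share the RNA pool with crystallin mRNA.

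The members described here are the genes annotated as processed pseudogenes or transcribed processed pseudogenes that reached at least 5 CPM (counts scaled to a common library total) in at least 3 of 12 libraries. The members were thus chosen by their counts in these same libraries. There were 186 of them (164 processed and 22 transcribed processed pseudogenes) among 10303 annotated in the table of 55487 genes, and they made up 2.07% of the 8984 genes at that level. All 12 libraries were made from poly-A selected lens RNA of mice at P7 (an age of 7 days) kept on the C57BL6/J background, with 3 libraries per genotype. The genotypes were WT, *Trpm3*-I/M and *Trpm3*-M/M, respectively heterozygous and homozygous for an isoleucine-to-methionine change in the TRPM3 cation channel made by CRISPR/Cas9 editing, and *Trpm3*-KO, made by homologous recombination and re-derived from frozen embryos. Lenses of both sexes were pooled for each library, by the methods 4 male and 4 female, and nothing states whether lenses of different libraries came from different litters, so p-values measure the spread between these libraries. Because the *Trpm3*-KO mice came from another source than the edited mice, genotype and line of origin cannot be told apart in any comparison with *Trpm3*-KO.

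Between 56162182 and 82090262 reads per library were counted on genes. *Trpm3* reached 268.5 ± 17.3 CPM in WT and 95.3 ± 5.0 in *Trpm3*-KO (SD, n = 3 each; CPM here and below with TMM library factors), lower in every *Trpm3*-KO library as the label calls for. *Trpm3*-I/M replicate 3 held *Xist* at 0.07 CPM against 37.96 to 276.35 in the other 11 libraries, and the summed level of 4 Y-linked genes was 69.88 CPM against 21.65 to 47.96, which goes against a pool of both sexes. Without that library the number of members past both thresholds stayed at 2 in *Trpm3*-I/M vs WT. All 9 lens fiber and 5 lens epithelial markers were detected, the latter at summed levels of 19478.41 to 26284.71 CPM. Fiber markers summed to 205832 to 226061 CPM in WT and 196793 to 215161 in *Trpm3*-KO, ranges that overlap, and to 168052 to 179485 for *Trpm3*-I/M and 137460.1 to 144887 for *Trpm3*-M/M, which lay apart from each other and from WT. Markers of other cells were low, and all lists but that of pigmented cells were higher in *Trpm3*-M/M than in WT. The sums were 24.8 to 31.8 against 0.819 to 1.55 CPM for vascular endothelium and 5.88 to 11.3 against 0.278 to 0.399 for macrophages. They were 3.66 to 6.72 against 0.236 to 0.436 for cornea and 1.51 to 4.13 against 0.651 to 0.852 for photoreceptors. Red blood cell markers summed to 12.4 to 15.0 against 1.22 to 11.9 CPM. Pigmented cell markers summed to 2.89 to 3.46 CPM in *Trpm3*-M/M, 3.09 to 3.63 in WT and 5.32 to 6.17 in *Trpm3*-I/M. In *Trpm3*-I/M the vascular endothelial sum was 4.88 to 9.82 and that of macrophages 0.663 to 0.782 CPM. In such bulk RNA, fewer cells of a type and less RNA per cell cannot be told apart.

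A parent gene was assigned to 183 of the 186 pseudogenes, by the symbol for 58 (the gene named before "-ps") and by the best sequence match among protein-coding transcripts for 125. These were copies of 149 different genes. For 7 pseudogenes another protein-coding gene matched as well as the assigned parent, so the parent is not unique there. Sequence identity to the parent transcript had a median of 99.75% and a lowest value of 96.32%, 154 pairs reached 99%, and 55 pseudogenes were identical to their parent over the aligned length. Of all stretches of 100 bases in a pseudogene, a median of 79.7% occurred letter for letter in the parent transcript, and for 51 pseudogenes every such stretch did. The members were short, with a median length of 635.5 bases (171 to 2866), 164 had 1 exon, 54 lay in an intron of another gene, 16 overlapped an exon of another gene and 116 overlapped none. The library kit named in the labels does not mark strand, so for the 70 that lie in or over another gene, reads of that gene cannot be separated either.

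The sequences below show how close the copies are, for pseudogenes called in *Trpm3*-KO or *Trpm3*-M/M vs WT that the results turn on. Each line is 120 bases of coding sequence in the direction of the parent mRNA, taken from GENCODE M21 transcripts (GRCm38). The place is the stretch, aligned without gaps, where the pseudogenes of a set together differ most from the parent. Capitals mark the bases at which a pseudogene and its parent differ. The first set is *Rpl15*, a protein of the large ribosomal subunit, with its 4 copies *Rpl15-ps2* (chr9:72060937-72061549, plus strand, in an intron of *Tcf12*), *Rpl15-ps3* (chr9:22185607-22186221, minus), *Rpl15-ps6* (chr15:52477617-52478228, minus) and *Gm4294* (chr12:12023045-12023658, plus). *Rpl15-ps2* differed from *Rpl15* at 8 and *Gm4294* at 1 of 610 aligned coding bases, and *Rpl15-ps6* differed at 2 and *Rpl15-ps3* at 0 of 612. The difference of *Gm4294* lies outside the bases shown, so its line and that of *Rpl15-ps3* equal the parent.
Rpl15: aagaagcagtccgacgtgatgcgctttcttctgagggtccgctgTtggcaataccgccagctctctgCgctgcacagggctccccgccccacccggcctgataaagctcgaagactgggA
Rpl15-ps2: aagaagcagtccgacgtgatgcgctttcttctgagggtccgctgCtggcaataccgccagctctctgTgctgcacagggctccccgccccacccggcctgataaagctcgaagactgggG
Rpl15-ps3: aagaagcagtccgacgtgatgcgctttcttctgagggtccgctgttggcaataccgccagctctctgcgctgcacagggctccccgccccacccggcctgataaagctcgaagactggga
Rpl15-ps6: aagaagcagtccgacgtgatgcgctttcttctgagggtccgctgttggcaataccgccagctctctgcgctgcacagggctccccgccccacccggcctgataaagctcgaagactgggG
Gm4294: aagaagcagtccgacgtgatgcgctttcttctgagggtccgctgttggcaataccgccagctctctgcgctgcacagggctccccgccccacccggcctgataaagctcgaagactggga

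The next sets are the most counted member, *Gm6166* (chr9:57483963-57484371, plus), beside *Fabp5*, a fatty acid binding protein, with 5 differing bases over 405 coding bases, *Rpsa-ps10* (chr3:150072658-150073542, minus) beside *Rpsa*, a protein of the small ribosomal subunit, with 6 over 885, and *Gm3375* (chr7:3181093-3181888, plus) beside *Psmb5*, a catalytic subunit of the proteasome, with 8 over 792.
Fabp5: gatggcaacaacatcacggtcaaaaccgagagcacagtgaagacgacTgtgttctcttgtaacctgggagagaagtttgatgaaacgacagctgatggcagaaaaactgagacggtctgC
Gm6166: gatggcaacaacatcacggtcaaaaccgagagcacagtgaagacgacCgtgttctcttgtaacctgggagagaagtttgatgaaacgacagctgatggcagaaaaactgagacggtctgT
Rpsa: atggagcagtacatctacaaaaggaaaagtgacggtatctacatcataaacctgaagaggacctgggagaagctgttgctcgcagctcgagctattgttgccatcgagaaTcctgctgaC
Rpsa-ps10: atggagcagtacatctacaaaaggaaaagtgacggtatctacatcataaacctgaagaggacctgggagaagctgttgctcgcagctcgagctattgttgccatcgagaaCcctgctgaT
Psmb5: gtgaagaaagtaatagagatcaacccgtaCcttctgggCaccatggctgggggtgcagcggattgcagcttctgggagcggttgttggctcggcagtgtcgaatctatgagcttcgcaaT
Gm3375: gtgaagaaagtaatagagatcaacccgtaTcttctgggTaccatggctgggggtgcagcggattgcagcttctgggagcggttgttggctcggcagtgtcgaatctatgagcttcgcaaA

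The last sets concern copies that changed in *Trpm3*-M/M. *Gm4798* (chr10:71704290-71705988, plus) is a copy of *Etv5*, a transcription factor of the ETS family, and differed at 7 of the 993 coding bases that aligned. *Gm7049* (chr13:62813076-62814787, plus) is a copy of *Me1*, the cytosolic malic enzyme, and differed at 21 of 1710. *Pgk1-rs7* (chr12:10898986-10900240, minus) and *Gm5537* (chr3:58102996-58104247, minus) are copies of *Pgk1*, the glycolytic enzyme phosphoglycerate kinase, and did not differ from it at any aligned coding base, so the line shown for *Pgk1* is the same for all 3.
Etv5: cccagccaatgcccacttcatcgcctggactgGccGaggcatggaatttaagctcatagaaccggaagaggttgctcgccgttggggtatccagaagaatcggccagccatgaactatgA
Gm4798: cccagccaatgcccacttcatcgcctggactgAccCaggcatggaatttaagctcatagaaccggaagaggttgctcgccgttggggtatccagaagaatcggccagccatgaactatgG
Me1: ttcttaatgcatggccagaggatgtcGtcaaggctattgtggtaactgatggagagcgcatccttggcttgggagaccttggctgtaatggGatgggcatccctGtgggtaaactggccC
Gm7049: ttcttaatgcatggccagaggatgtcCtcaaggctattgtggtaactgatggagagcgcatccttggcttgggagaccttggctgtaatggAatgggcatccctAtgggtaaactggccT
Pgk1: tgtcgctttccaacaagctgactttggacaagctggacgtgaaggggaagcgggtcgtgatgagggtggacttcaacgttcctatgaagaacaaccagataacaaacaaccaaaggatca

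Over the 12 libraries, members' levels (here CPM by library total, as in the rule, without TMM factors) ranged from a mean of 983.6 CPM for *Gm6166* to 3.79 CPM for *Gm7049*, with a median of 14.9, and 17 members had a mean of at least 100 CPM. The other highest members were *Gm15500* (a copy of *Rpl5*, 344.6 CPM), *Rpsa-ps10* (273.7), *Tpt1-ps3* (a copy of *Tpt1*, 269.0), *Gm15459* (a copy of the chaperone gene *Hspa8*, 256.2), *Gm10123* (a copy of *Ppia*, a peptidyl-prolyl isomerase, 237.0), *Gm10275* (*Rpl12*, 234.3), *Gm7536* (*Rpl27a*, 175.2), *Hsp25-ps1* (*Hspb1*, a small heat shock protein, 168.7) and *Gm12918* (*Rpl13*, 141.6). By parent, 72 members were copies of ribosomal protein genes (47 of the large and 24 of the small subunit, and 1 of *Fau*), 11 of glycolytic and other energy enzymes, 11 of mitochondrial proteins, 9 of chromatin and nuclear proteins, 8 each of chaperones and of translation factors, 7 of ubiquitin and proteasome genes, 5 of cytoskeletal genes and 52 of other genes. *Gapdh* had 7 copies among the members, *Rpl15* and *Rpl21* had 4 each, and *Rpl17*, *Rpl23a* and *Timm23* 3 each. The level of 5 CPM was reached in all 12 libraries by 143 members and in exactly 3 by 15. On the same scale, just inside the rule lay *Kansl2-ps*, *Gm8116* and *Gm7488*, whose CPM in the library ranked 3 from the top was 5.07, 5.13 and 5.15, and just outside lay *Gm5182*, *Gm14584* and *2810025M15Rik* at 4.89, 4.87 and 4.85.

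The deposited values are estimated counts, which need not be whole where reads are divided between genes. Of the members' values 98.7% were not whole, and 99.05% of those of their parents, against 31.0% over all genes tested and 27.9% over the other protein-coding genes. In WT the pseudogene held a median of 12.8% of the counts of the pair formed with its parent, from 0.133% to 79.3%, and in 13 of 183 pairs it held at least 50%. *Gm15500*, for example, held 76.1% ± 0.51 of the counts it shared with *Rpl5* in WT and 74.8% ± 1.3 in *Trpm3*-M/M (SD, n = 3). Whether any pseudogene was itself transcribed was not tested. The share of a pair, taken within a library, does not depend on the scaling between libraries.

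The median coefficient of variation within genotypes was 7.71% for members, 3.98% for their parents and 5.25% over all genes tested, and it exceeded 25% for 9 members (4.84%) against 1.08% of genes tested. The widest spread, in genes named after their values were seen, was that of *Gm10233* (90.7%) and *Gm10273* (73.6%), copies of *Timm23*, a subunit of the mitochondrial import machinery, followed by *Gm15772* (72.9%). *Gm10233* had 0, 561.2 and 176.3 estimated counts in the 3 WT libraries and *Gm10273* had 489.7, 0 and 235.2, where a count of 0 allows up to 3 reads. Where the first was at 0 the second was at its highest among the WT libraries, and the reverse, although the libraries share a genotype. *Gm15772*, a copy of *Rpl26*, had 41.0, 4.96 and 215.4 CPM in WT and 60.1, 176.7 and 65.1 in *Trpm3*-I/M, so that its log2 fold change of -4.34 ± 1.18 (SE) in *Trpm3*-KO vs WT did not pass (edgeR quasi-likelihood test, FDR = 0.0602).

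*Trpm3*-KO lenses were compared with WT to ask what loss of the channel changes in lens RNA. Processed pseudogenes held 13 of the 51 genes past both thresholds (FC ≥ 2 and FDR ≤ 0.05, edgeR quasi-likelihood test), which is 25.5% of the calls from 2.07% of the genes. Of all genes tested 0.568% were called in this comparison, 0.334% lower and 0.234% higher. Among the 13 members, 9 were lower and 4 were higher in *Trpm3*-KO, and at FDR ≤ 0.05 alone 20 members passed (10.8% against 4.36% of all genes). The 4 higher members, *Rpl15-ps2*, *Rpl15-ps6*, *Gm3375* and *Ncoa4-ps*, reached 5 CPM in *Trpm3*-KO libraries only, so they entered the list through the genotype in which they are high. The 9 lower members reached that level in other genotypes, and most of them in *Trpm3*-KO libraries as well. Of the 13, 6 were copies of ribosomal protein genes (4 lower and 2 higher). The 13 lay on 8 chromosomes and none on chromosome 19, which carries *Trpm3* and 4 members.

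*Gm6166* had the highest level of all members. Its CPM was 1587, 1902 and 1685 in WT, 1178, 1039.6 and 1086 in the *Trpm3*-I/M libraries, 1001, 995 and 1025 in *Trpm3*-M/M, and 66.6, 69.3 and 58.1 in *Trpm3*-KO. The *Trpm3*-KO libraries lay far below all 9 others, a 26.7-fold fall from WT (log2 fold change -4.74 ± 0.089 (SE), FDR = 9.38e-13). *Fabp5*, the parent, was at 2799.7, 3184 and 2772 CPM in WT and at 4952, 4751 and 4501 in *Trpm3*-KO, a rise of 0.70 ± 0.066 (SE), FDR = 2.14e-05 on the log2 scale. Counts of *Fabp5* and all its processed pseudogenes together gave 4392, 5094 and 4465 CPM in WT and 5021, 4826 and 4560.0 in *Trpm3*-KO, ranges that overlap. *Gm6166* thus held 37.1% ± 0.85 of the pair's counts in WT, 36.98% ± 0.95 in the *Trpm3*-I/M libraries, 37.1% ± 1.4 in *Trpm3*-M/M and 1.35% ± 0.083 in *Trpm3*-KO (SD, n = 3 each).

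*Rpsa-ps10* fell most. It stood at 367, 481 and 506 CPM in WT, 285, 386 and 296 in the *Trpm3*-I/M libraries, 271, 317 and 281 in *Trpm3*-M/M and 15.5, 14.7 and 14.4 in *Trpm3*-KO, a 30.3-fold fall (log2 fold change -4.92 ± 0.15 (SE), FDR = 1.09e-10). *Rpsa* rose over the same comparison (0.63 ± 0.088 (SE), FDR = 6.64e-04). The pseudogene held 48.8% ± 4.96 of the pair's counts in WT and 2.00% ± 0.017 in *Trpm3*-KO. No *Trpm3*-KO library overlapped any other library in either the level or the share.

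Higher counts in *Trpm3*-KO took the same form with the opposite sign. *Gm3375* had 1.55, 1.83 and 1.59 CPM in WT, 1.32, 1.65 and 1.72 in the *Trpm3*-I/M libraries, 0.988, 1.28 and 1.09 in *Trpm3*-M/M and 42.7, 41.9 and 41.4 in *Trpm3*-KO (log2 fold change 4.67 ± 0.094 (SE), FDR = 1.35e-12). *Psmb5* fell from 119, 129 and 126 CPM in WT to 74.3, 71.6 and 73.03 in *Trpm3*-KO (-0.77 ± 0.053 (SE), FDR = 7.25e-07), while the sum of parent and pseudogenes was 120.2, 131 and 128 in WT and 117, 114 and 114 in *Trpm3*-KO. *Ncoa4-ps*, a copy of *Ncoa4*, the receptor that delivers ferritin for breakdown, had 2.91, 3.66 and 3.27 CPM in WT and 16.1, 15.8 and 15.99 in *Trpm3*-KO (2.29 ± 0.098 (SE), FDR = 5.85e-09). *Ncoa4* fell (-0.72 ± 0.060 (SE), FDR = 6.28e-06), and the sums were 39.7, 41.3 and 42.2 and 37.2, 39.3 and 40.3 CPM.

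The 4 copies of *Rpl15* moved in both directions within the same libraries. *Rpl15-ps2*, the copy with most differences from the parent, rose from 0.275, 0.420 and 0.278 CPM in WT to 46.2, 41.5 and 42.6 in *Trpm3*-KO (134-fold, log2 fold change 7.07 ± 0.13 (SE), FDR = 9.38e-13), and was at 0.270, 0.365 and 0.202 in the *Trpm3*-I/M libraries and 0.325, 0.347 and 0.237 in *Trpm3*-M/M. *Rpl15-ps6* rose from 1.49, 1.91 and 1.73 CPM to 61.5, 62.1 and 58.3 (5.15 ± 0.17 (SE), FDR = 2.22e-10). *Rpl15-ps3*, identical to *Rpl15*, fell from 33.2, 28.8 and 31.6 to 2.54, 2.41 and 2.40 (-3.67 ± 0.20 (SE), FDR = 6.20e-08), and *Gm4294* fell from 52.7, 47.4 and 55.3 to 6.50, 7.61 and 9.84 (-2.70 ± 0.13 (SE), FDR = 2.35e-08). *Rpl15* itself gave -0.26 ± 0.072 (SE), FDR = 0.0624, and *Rpl15* with all its processed pseudogenes gave -0.04 ± 0.046 (SE), FDR = 0.750. Thus 4 members differed beyond both thresholds in a family of genes whose summed counts did not pass, with *Trpm3*-KO sums of 327, 317 and 314 CPM inside the WT range of 312 to 345.

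**Figure D1:**
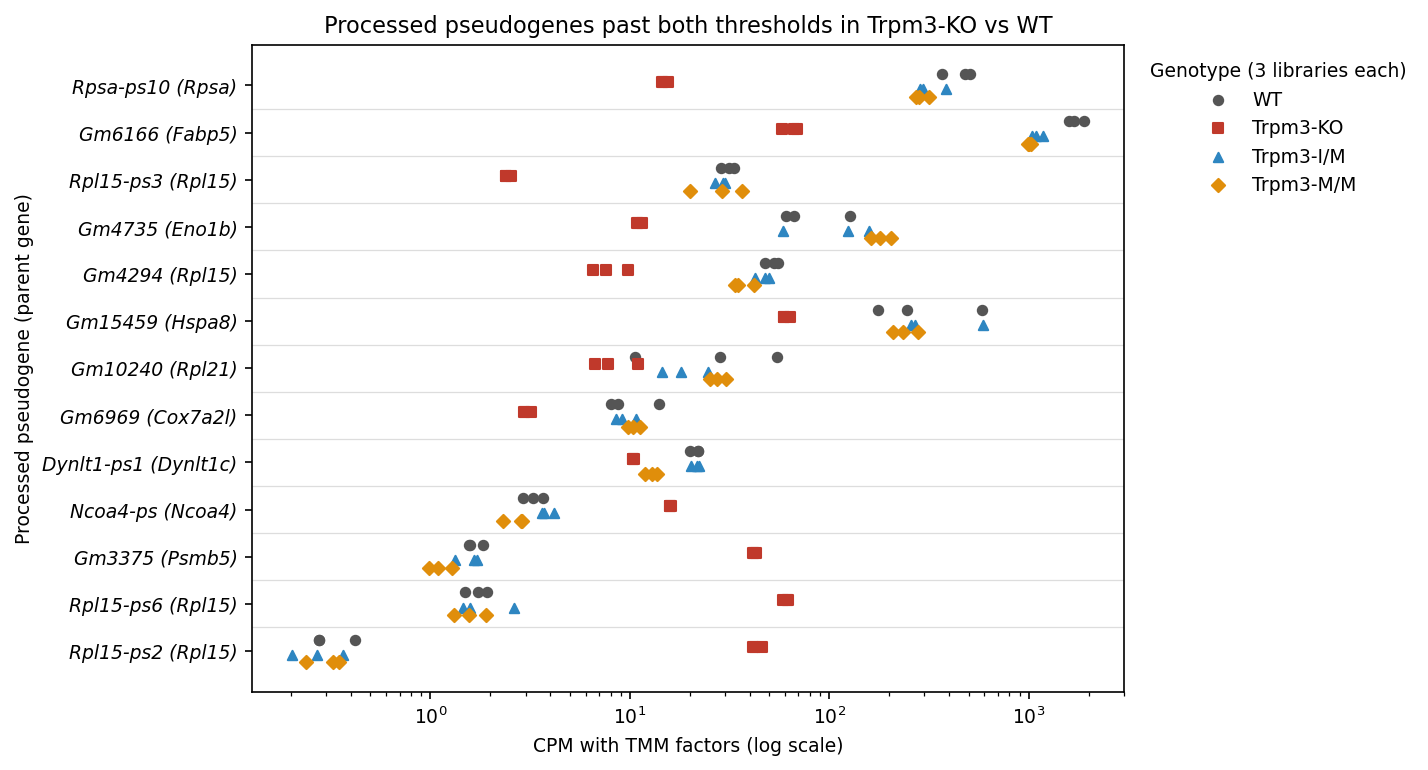
Level of the 13 processed pseudogenes past both thresholds in *Trpm3*-KO vs WT, in CPM with TMM factors on a log axis, with each point a library and the parent gene in parentheses. The *Trpm3*-KO libraries stand apart from all 9 others in 12 of the 13, and *Gm10240* is the exception.

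Of the other 5 lower members, *Gm4735* was named by its rank among the falls and *Gm15459* by its level. *Gm10240*, *Gm6969* and *Dynlt1-ps1* were named after their values were seen. *Gm4735*, a copy of the enolase gene *Eno1b*, had 60.6, 66.6 and 127 CPM in WT and 10.99, 10.9 and 11.6 in *Trpm3*-KO (-2.93 ± 0.34 (SE), FDR = 1.70e-04), and *Eno1b* was lower but did not pass (-0.74 ± 0.25 (SE), FDR = 0.126). *Eno1b* is itself an intronless copy of *Eno1*, which gave 0.42 ± 0.17 (SE, FDR = 0.192). *Gm15459* had 244, 175 and 582 CPM in WT, 269, 589 and 258 in *Trpm3*-I/M and 63.9, 59.1 and 59.2 in *Trpm3*-KO (-2.46 ± 0.40 (SE), FDR = 0.00258). Its WT libraries differed among themselves as *Hspa8* did in the reverse order, with 1172, 1376 and 748 CPM in the same 3 libraries. *Gm10240*, a copy of *Rpl21*, had 28.4, 54.5 and 10.6 CPM in WT and 6.69, 11.03 and 7.76 in *Trpm3*-KO (-1.87 ± 0.43 (SE), FDR = 0.0251), and these ranges overlap. Its call was lost without any 1 of the *Trpm3*-KO libraries (FDR = 0.0537 to 0.109), without WT replicate 2 (FDR = 0.0869) and with only the genotypes compared (FDR = 0.0669). *Gm6969*, a copy of *Cox7a2l*, which takes part in respiratory supercomplexes, fell (-1.77 ± 0.19 (SE), FDR = 6.37e-05). *Dynlt1-ps1*, identical to the dynein light chain gene *Dynlt1c*, fell together with it (-1.04 ± 0.061 (SE), FDR = 1.58e-07 for the pseudogene and -0.89 ± 0.092 (SE), FDR = 5.58e-05 for the parent), and *Dynlt1c* has near-identical paralogs in the mouse, so its counts are uncertain too.

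Over the 13 pairs, 8 pseudogenes had a log2 fold change opposite in sign to that of the parent, and 5 pseudogenes had a parent past FDR ≤ 0.05. Of the 10 different parents, 0 passed both thresholds in edgeR's quasi-likelihood test or in DESeq2, and 9 had an unadjusted p under 0.05 in the former, where 18.1% of all genes did. Over all 183 pairs, 16 differed between pseudogene and parent by at least 1 on the log2 scale in *Trpm3*-KO vs WT, against 3 in *Trpm3*-M/M vs WT and 0 in *Trpm3*-I/M vs WT, and the median absolute difference was 0.13, 0.10 and 0.09. Because these comparisons share the WT libraries, their values are set side by side only. The share of the pair's counts held by the pseudogene moved by at least 10 percentage points from WT in 13 pairs in *Trpm3*-KO, of which 11 were called, against 2 pairs for *Trpm3*-M/M and 0 for *Trpm3*-I/M. The *Trpm3*-KO libraries lay outside the range of all 9 others for 12 of the 13 called members and for 20 members in all (10.8%), where 9.03% of all genes tested did so.

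When the counts of every processed pseudogene were added to its parent and the fit was repeated on 8798 genes, a choice made after seeing the data, 1 of the 10 families behind the 13 members passed both thresholds in *Trpm3*-KO vs WT and 4 passed FDR ≤ 0.05 alone. The family past both was that of *Eno1b* (-1.18 ± 0.27 (SE), FDR = 0.0221). Its sum leaves out *Eno1*, of which *Eno1b* is itself a copy and which gave 0.42 ± 0.17 (SE), FDR = 0.192. Those of *Dynlt1c* (-0.99 ± 0.060 (SE), FDR = 2.72e-07), *Rpsa* (-0.30 ± 0.058 (SE), FDR = 0.00787) and *Cox7a2l* (-0.22 ± 0.043 (SE), FDR = 0.00915) passed FDR ≤ 0.05 only. The family of *Fabp5* gave 0.05 ± 0.064 (SE), FDR = 0.776, that of *Psmb5* -0.14 ± 0.052 (SE), FDR = 0.178, that of *Ncoa4* -0.08 ± 0.050 (SE), FDR = 0.455, and that of *Hspa8* 0.15 ± 0.058 (SE), FDR = 0.172. This fit tested no processed pseudogene by itself, so the 13 members could not be called in it. Over its 8798 genes 39 were called, a count that for this reason cannot be set against the 51 called before.

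**Figure D2:**
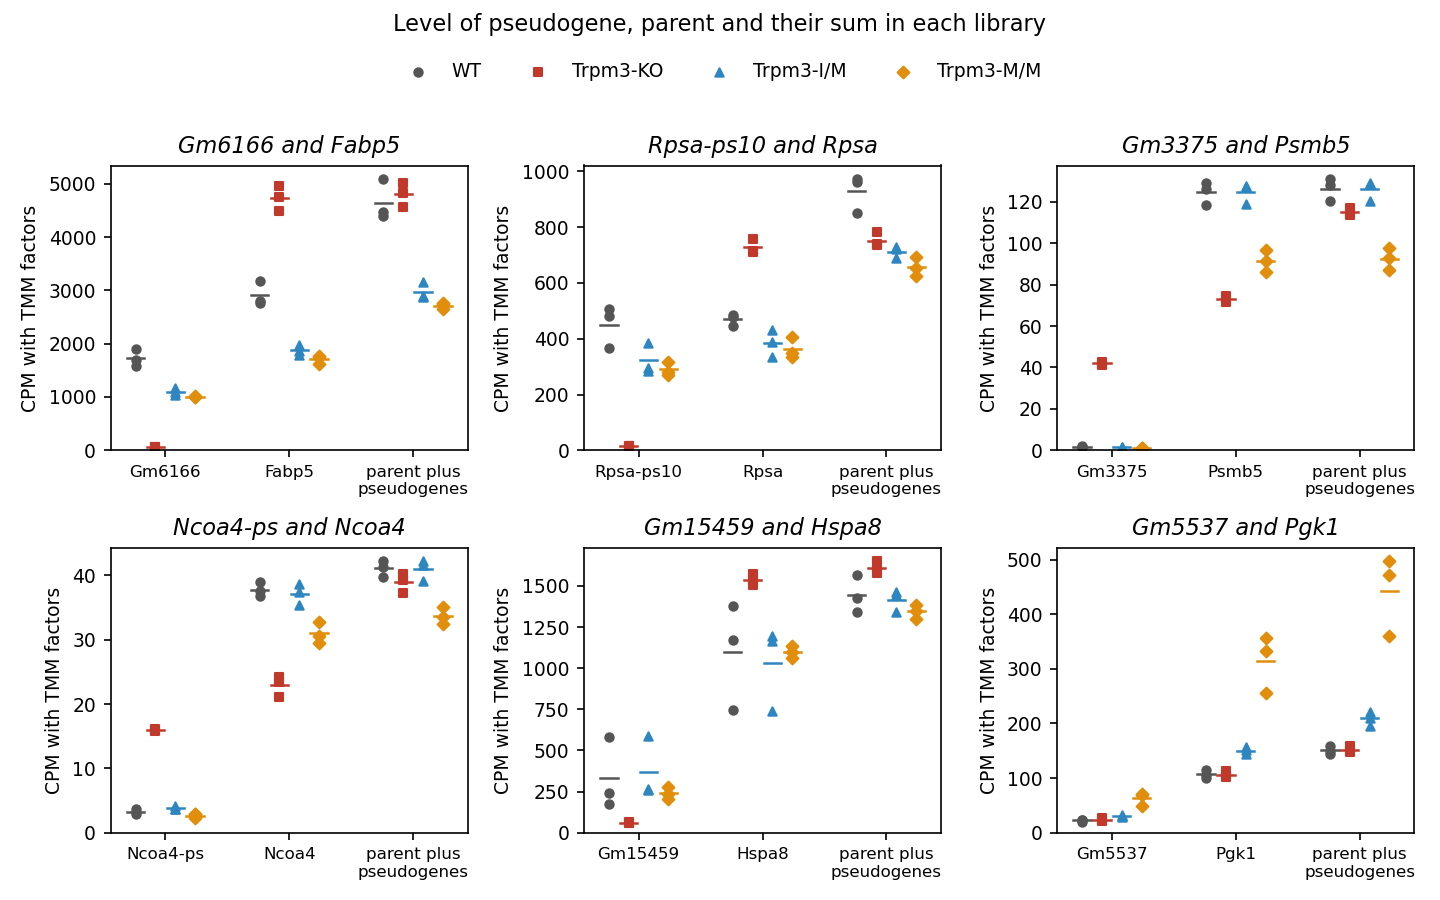
CPM with TMM factors of 6 pseudogenes, of their parents and of each parent plus all its processed pseudogenes, with each point a library and the bar the mean of 3. In *Trpm3*-KO *Gm6166* stood at 58.1 to 69.3 CPM and *Fabp5* at 4501 to 4952, while *Gm5537* and *Pgk1* rose together in *Trpm3*-M/M.

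Members as a whole held 0.766% ± 0.047 of all counted reads in WT, 0.881% ± 0.027 in *Trpm3*-M/M, 0.771% ± 0.035 in the *Trpm3*-I/M libraries and 0.538% ± 0.011 in *Trpm3*-KO (SD, n = 3 each). The members were chosen by these same counts, and 9 reached 5 CPM in *Trpm3*-M/M libraries only, 4 in *Trpm3*-KO only and 0 in WT only. The p-values of shares below are therefore descriptions. *Trpm3*-KO libraries lay below and *Trpm3*-M/M libraries above all WT libraries (exact permutation p = 0.1 each, two-sided, the smallest that 3 against 3 allows), and *Trpm3*-I/M did not differ beyond the spread (exact permutation p = 1). The 13 members called in *Trpm3*-KO held 0.241% of counted reads in WT and 0.031% in *Trpm3*-KO, and the other 173 held 0.526% ± 0.020 and 0.507% ± 0.011, a split made by the call in this comparison and so given with no test. In *Trpm3*-M/M the 13 held 0.2297% and the other 173 held 0.651% ± 0.022. Parents held 3.01% ± 0.032 in WT and 3.30% ± 0.043 in *Trpm3*-KO, and members and parents together 3.78% ± 0.079 and 3.84% ± 0.037 (exact permutation p = 0.3). Of the reads outside the 16 crystallin genes members held 2.02% ± 0.10 in WT, 1.78% ± 0.049 in *Trpm3*-M/M, 1.82% ± 0.10 in the *Trpm3*-I/M libraries and 1.38% ± 0.066 in *Trpm3*-KO, and all libraries of the 3 mutant genotypes then lay below all WT libraries (exact permutation p = 0.1 each).

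**Figure D3:**
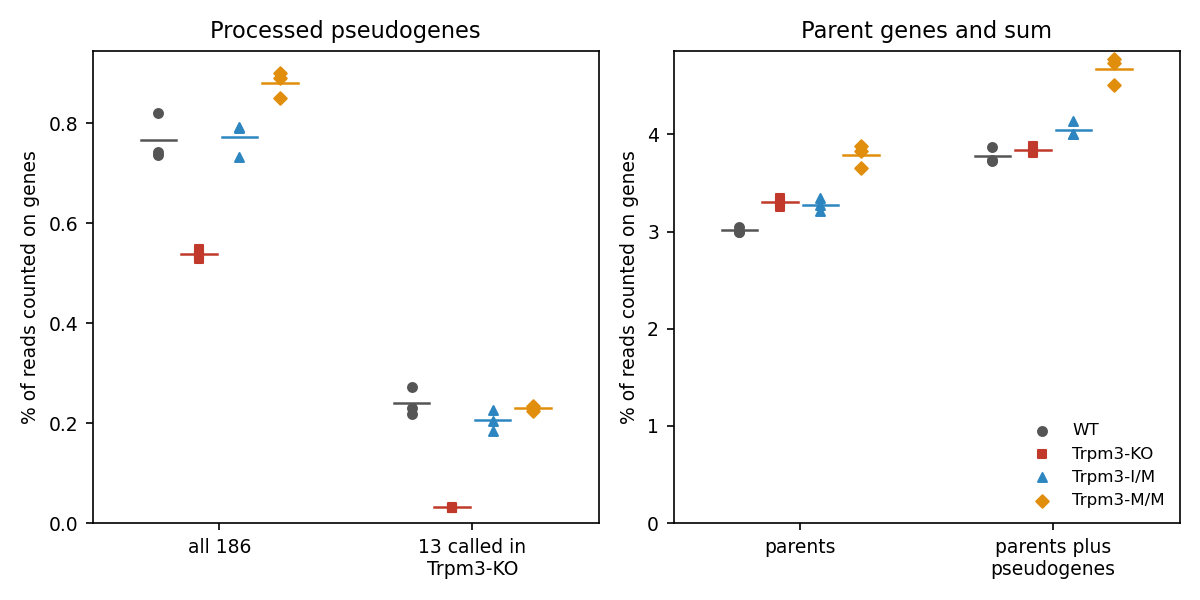
Percent of counted reads held by the 186 pseudogenes, by the 13 called in *Trpm3*-KO, by the parents and by parents plus pseudogenes, with each point a library and the bar the mean of 3. The *Trpm3*-KO libraries are lowest for the pseudogenes, at 0.528% to 0.549%, and within 3.803% to 3.88% for the sum, beside 3.73% to 3.87% in WT.

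In *Trpm3*-M/M vs WT, which asks what the substitution does when homozygous, called pseudogenes moved with their parents. Over all 183 pairs, pseudogene and parent differed by less than 0.5 on the log2 scale in 172 and by at least 1 in 3. Past both thresholds were 6 of 186 members (5 higher and 1 lower), where 8.95% of all genes were called, 6.42% higher and 2.53% lower. At FDR ≤ 0.05 alone 121 members passed (65.1%) against 62.7% of all genes. All 5 different parents of the 6 called members moved in the same direction and passed FDR ≤ 0.05, and 2 of them, *Etv5* and *Pgk1*, passed both thresholds. The members counted here and by class below include 9 that reached 5 CPM in *Trpm3*-M/M libraries only. Those 9 entered the list through that genotype.

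*Gm4798* rose most, from 2.79, 3.38 and 2.93 CPM in WT to 7.91, 8.52 and 7.34 in *Trpm3*-I/M libraries and 14.03, 14.4 and 13.6 in *Trpm3*-M/M, with 3.48, 3.62 and 3.51 in *Trpm3*-KO. Every *Trpm3*-M/M library lay above every *Trpm3*-I/M library, and these above all WT and *Trpm3*-KO libraries. How many of all genes tested are ordered in this way was not counted, and 62.7% passed FDR ≤ 0.05 in *Trpm3*-M/M vs WT. No WT or *Trpm3*-KO library reached 5 CPM, so *Gm4798* entered the list through the genotypes in which it is high. The log2 fold change was 2.21 ± 0.080 (SE), FDR = 8.19e-11 for *Trpm3*-M/M and 1.39 ± 0.082 (SE), FDR = 5.18e-08 for *Trpm3*-I/M. *Etv5* changed by 2.08 ± 0.058 (SE), FDR = 9.45e-12 and 1.32 ± 0.057 (SE), FDR = 2.57e-09, and the pseudogene held 8.64% ± 0.93 of the pair's counts in WT and 9.37% ± 0.12 in *Trpm3*-M/M.

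The *Pgk1* copies rose as *Pgk1* did. *Pgk1-rs7* had 19.9, 20.5 and 23.2 CPM in WT, 54.4, 69.8 and 69.7 in *Trpm3*-M/M, 33.2, 28.4 and 24.1 in the *Trpm3*-I/M libraries and 22.02, 20.4 and 25.4 in *Trpm3*-KO. *Gm5537* had 23.6, 24.04 and 20.04 in WT, 49.6, 71.4 and 69.3 in *Trpm3*-M/M, 31.00, 31.8 and 28.3 in the *Trpm3*-I/M libraries and 26.3, 23.1 and 20.8 in *Trpm3*-KO. All *Trpm3*-M/M libraries lay above every other library for both. The share of all genes tested that do so was not counted, and 62.7% passed FDR ≤ 0.05 in *Trpm3*-M/M vs WT. Their log2 fold changes against WT were 1.61 ± 0.13 (SE), FDR = 1.36e-07 and 1.49 ± 0.13 (SE), FDR = 3.19e-07, beside 1.56 ± 0.10 (SE), FDR = 2.26e-08 for *Pgk1*. *Gm5537* held 17.4% ± 1.6 of the counts it shared with *Pgk1* in WT and 16.7% ± 0.48 in *Trpm3*-M/M.

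*Gm7049* rose from 2.36, 1.79 and 2.06 CPM in WT to 3.57, 4.71 and 4.17 in *Trpm3*-I/M libraries and 5.54, 6.03 and 5.02 in *Trpm3*-M/M, and reached 5 CPM in *Trpm3*-M/M libraries only, so it entered the list through the genotype in which it is high. Its log2 fold change was 1.42 ± 0.14 (SE), FDR = 1.06e-06 for *Trpm3*-M/M and 1.00 ± 0.14 (SE), FDR = 1.14e-04 for *Trpm3*-I/M, the latter at the FC threshold and below it in 9 of the 12 fits that leave out 1 library (down to 0.89), and *Me1* changed by 0.95 ± 0.052 (SE), FDR = 4.17e-09 and 0.58 ± 0.052 (SE), FDR = 2.14e-06. *Gm4735* rose in *Trpm3*-M/M (1.10 ± 0.31 (SE), FDR = 0.00695), as did *Eno1b* (0.99 ± 0.25 (SE), FDR = 0.00328), and it fell below FC 2 without WT replicate 1 (log2 fold change 0.91) or WT replicate 2 (0.95). The lower member was *Rps12l1* (chr7:56014016-56014414, plus), identical to the ribosomal protein gene *Rps12* over its length, with 70.3, 88.3 and 76.6 CPM in WT and 28.1, 34.2 and 48.3 in *Trpm3*-M/M (-1.09 ± 0.17 (SE), FDR = 9.13e-05, beside -0.63 ± 0.060 (SE), FDR = 8.77e-07 for *Rps12*). Its log2 fold change fell short of FC 2 with libraries scaled to their size alone (-0.57), without *Trpm3*-M/M replicate 1 (-0.93) and without WT replicate 2 (-0.996).

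Past both thresholds in *Trpm3*-I/M vs WT were *Gm4798* and *Gm7049* only, 2 of 186 members, both higher, where 3.33% of all genes were called (2.58% higher). At FDR ≤ 0.05 alone 57 members passed (30.6%) against 32.6% of all genes. Between *Trpm3*-M/M and *Trpm3*-I/M 4 members were called (2 higher and 2 lower), where 4.70% of all genes were called, 3.67% higher and 1.02% lower. At FDR ≤ 0.05 alone 88 passed (47.3%) against 51.3%. *Pgk1-rs7* (1.18 ± 0.12 (SE), FDR = 4.79e-06) and *Gm5537* (1.06 ± 0.12 (SE), FDR = 1.31e-05) were higher in *Trpm3*-M/M, beside 1.07 ± 0.099 (SE), FDR = 1.74e-06 for *Pgk1*.

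The 2 lower members, *Gm12895* (chr4:122455210-122455435, plus) and *Gm12896* (chr4:122122847-122123072, plus), lie 332 kb apart on chromosome 4, match each other at 100% over 224 bases, and had no parent by either rule. *Gm12896* had 17.97, 17.6 and 23.5 CPM in WT, 17.8, 11.5 and 8.98 in *Trpm3*-M/M, 22.4, 31.3 and 29.1 in the *Trpm3*-I/M libraries and 17.9, 12.2 and 11.6 in *Trpm3*-KO. *Gm12895* had 17.05, 17.2 and 23.9 in WT, 18.2, 12.4 and 8.01 in *Trpm3*-M/M, 22.1, 30.6 and 28.4 in the *Trpm3*-I/M libraries and 16.9, 13.1 and 12.5 in *Trpm3*-KO. The values of the pair are close to equal in every library, so they do not count as independent. Their log2 fold changes in *Trpm3*-M/M vs *Trpm3*-I/M were -1.12 ± 0.22 (SE), FDR = 0.00105 and -1.08 ± 0.23 (SE), FDR = 0.00182. With library size alone they were -0.81 and -0.77, below FC 2. *Gm12895* was also below it without *Trpm3*-I/M replicate 2 (-0.97), and *Gm5537* without *Trpm3*-M/M replicate 2 (0.97). Without *Trpm3*-M/M replicate 3, *Pgk1-rs7* alone of the 4 passed both thresholds.

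**Figure D4:**
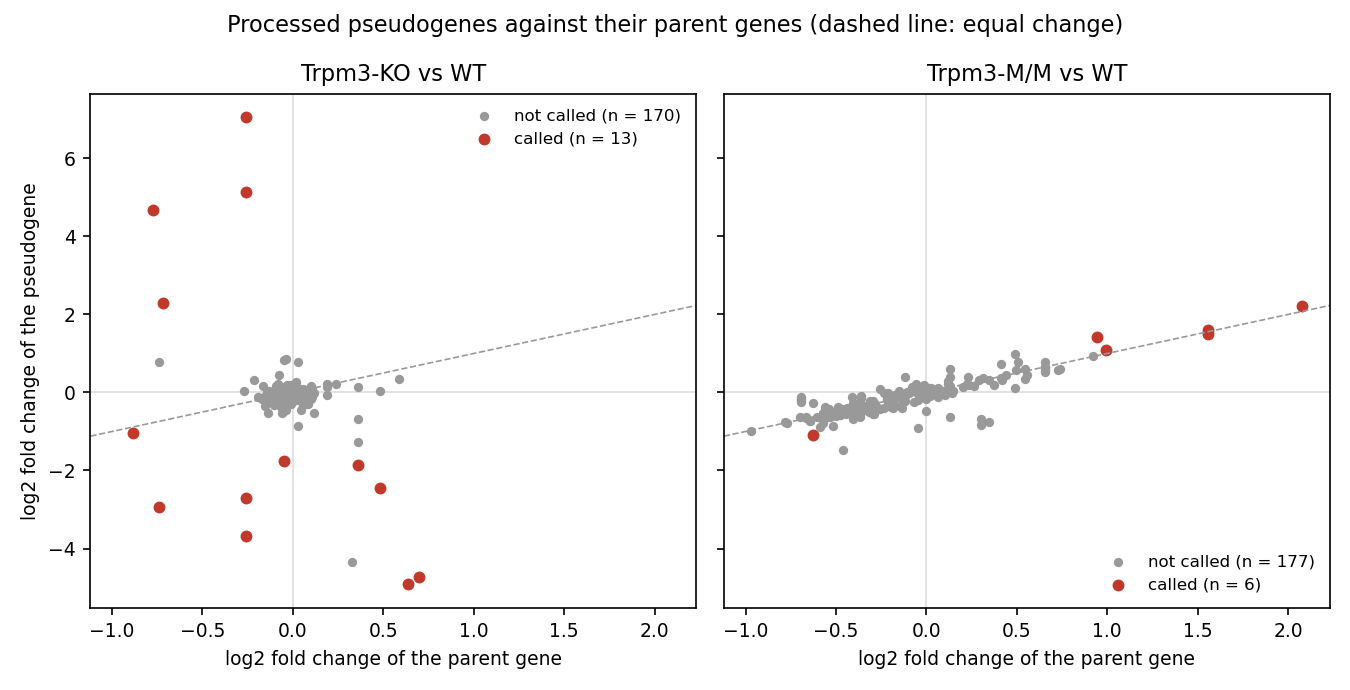
Log2 fold change of each pseudogene against that of its parent for 183 pairs, in *Trpm3*-KO vs WT and in *Trpm3*-M/M vs WT, with pairs whose pseudogene passed both thresholds in red. In *Trpm3*-KO the called pseudogenes reach -4.92 and 7.07 while no parent exceeds 1 in size, and in *Trpm3*-M/M most pairs lie near the line of equal change.

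By class of parent, copies of ribosomal protein genes were lower in *Trpm3*-M/M, a direction that turned with library size as the only scaling, and copies of glycolytic genes were higher under both scalings. The classes follow the parent's function and were written with earlier results known, so their counts are descriptions. Of 72 ribosomal protein pseudogenes, 55 were lower at FDR ≤ 0.05, 0 were higher (0 also by DESeq2 and 0 at an unadjusted p under 0.05, which 66.5% of all genes reached in either direction) and 17 did not pass, with a median log2 fold change of -0.43 (parents -0.41), where 31.4% of all genes were lower and the median was near 0. With library size as the only scaling the median of all genes shifted by 0.50 and that of these pseudogenes to 0.08, so that 4 were lower and 13 higher, where 5.51% of all genes were lower and 81.97% higher, and relative to all genes the median stayed at -0.42. Among those that passed were *Rpl38-ps2* (-0.88), *Rps15a-ps7* (-0.79) and *Gm14303*, a copy of *Rps29* (-0.72), named as examples after their values were seen. In *Trpm3*-I/M 31 of the 72 were lower and 0 higher (median -0.23, where 15.3% of all genes were lower; 0 higher by DESeq2 and 0 at an unadjusted p under 0.05, which 41.5% of all genes reached), and with library size alone 2 were lower and 2 higher, where 3.95% of all genes were lower and 51.9% higher. In *Trpm3*-KO the median was -0.16, and 9 of the 72 passed FDR ≤ 0.05, where 4.36% of all genes did.

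All 11 pseudogenes of glycolytic enzymes were higher in *Trpm3*-M/M at FDR ≤ 0.05, with a median log2 fold change of 0.64 (parents 0.96), where 31.4% of all genes were higher, and they were also higher, 11 of 11, with library size alone (median 1.16, where 81.97% of all genes were higher and their median was 0.50). These are few families and not independent: 7 are copies of *Gapdh*, 2 of *Pgk1*, and 1 each of *Eno1b* and *Pgam1*. Parent medians of a class count each parent once, here 4 genes, so they are not weighted by the number of copies. The difference between the medians of copies and parents is therefore not a difference within pairs. The *Gapdh* copies, named with their class, ranged from 0.53 for *Gm12671* to 0.77 for *Gm5559*, and *Pgam1-ps2* gave 0.93. In *Trpm3*-I/M 2 of the 11 were higher (median 0.07, where 17.3% of all genes were higher), and 4 with library size alone, where 51.9% were. The levels of fiber, vascular endothelial and most other markers given above moved with these classes, and their part in the class values was not tested.

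Of 8 pseudogenes of translation factors 6 were lower in *Trpm3*-M/M (median -0.30), among them *Gm4366*, a copy of the elongation factor gene *Eef1g* (just short of FC 2), and with library size alone 1 was lower and 5 higher. The 5 cytoskeletal pseudogenes split by parent: the 3 copies of alpha-tubulin genes were lower (*Gm17383* -0.83, *Gm3756* -0.67 and *Gm6682* -0.77) and the 2 copies of *Actg1*, a cytoplasmic actin, were higher (*Gm12715* 0.61 and *Gm8399* 0.35). The median of these 5 was -0.67, but that of their 3 parents was 0.35, so not every alpha-tubulin parent was lower. With library size alone the class had 2 lower and 2 higher. Over all genes 31.4% were higher and 31.4% lower, and the shares of the remaining classes are to be read against that. Of 11 mitochondrial pseudogenes 5 were lower, of 9 chromatin and nuclear ones 4 were higher and 2 lower, of 7 ubiquitin and proteasome ones 3 were lower, and of 8 chaperone ones *Hsp25-ps1* was higher (0.58) and *Gm15542*, a copy of *Dnaja1*, lower (-0.24). *Hsp25-ps1* had 212, 217 and 116 CPM in *Trpm3*-M/M against 115 to 129 in WT, so *Trpm3*-M/M replicate 3 lay inside the WT range. With library size alone 7 of the mitochondrial, 8 of the chromatin, 4 of the ubiquitin and 7 of the chaperone pseudogenes were higher and 0 lower at FDR ≤ 0.05, where 81.97% of all genes were higher. Over all members the median log2 fold change in *Trpm3*-M/M vs WT was -0.20 with 34 higher and 87 lower at FDR ≤ 0.05 (median 0.31, 54.3% higher and 5.38% lower with library size alone), in *Trpm3*-I/M vs WT -0.07 and in *Trpm3*-KO vs WT -0.07.

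**Figure D5:**
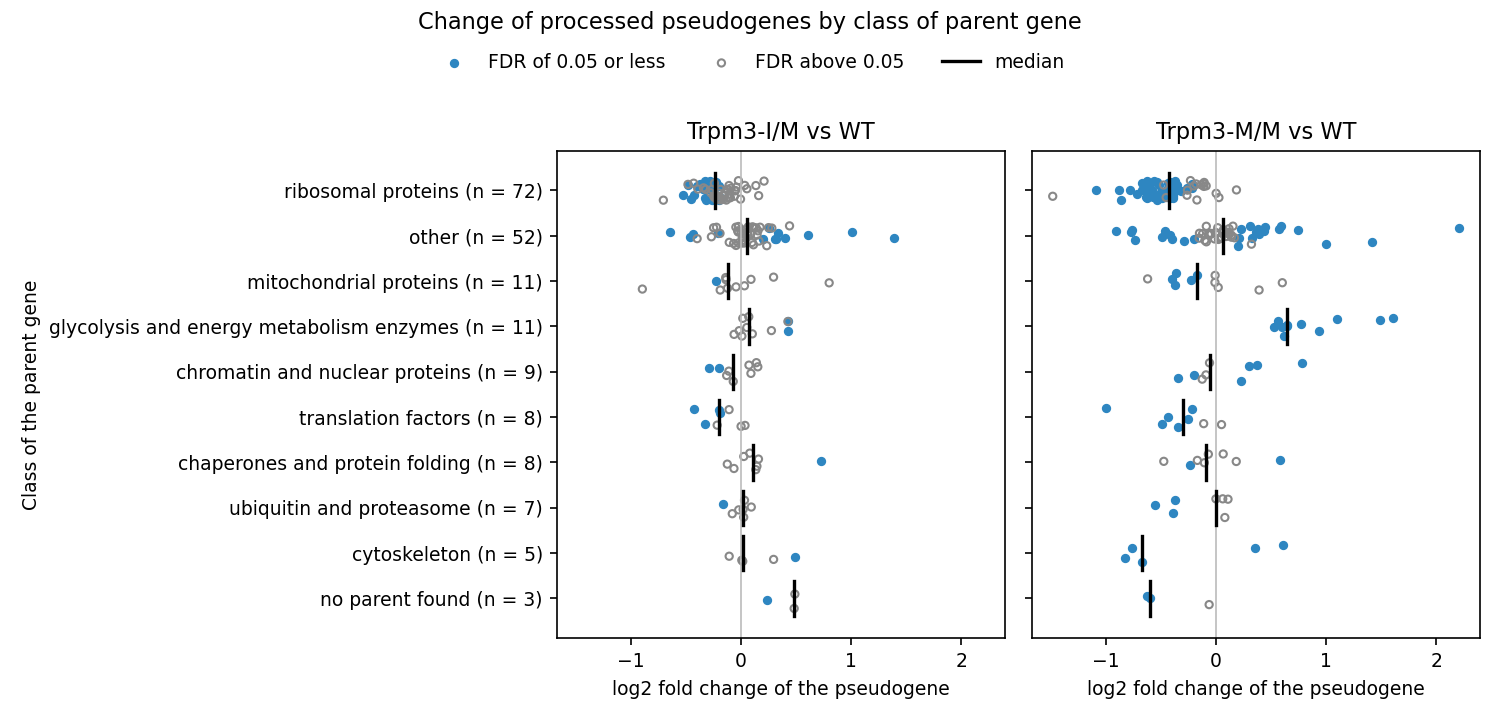
Log2 fold change of each pseudogene by class of its parent gene, in *Trpm3*-I/M vs WT and *Trpm3*-M/M vs WT, filled where FDR was 0.05 or less, with the class median as a bar. In *Trpm3*-M/M the median was -0.43 for ribosomal protein copies and 0.64 for copies of glycolytic genes, and with library size alone the first became 0.08.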

How the data were processed

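RNA-seq of lens RNA gave 12 libraries, whose genotypes were read from the labels. The authors aligned and quantified the reads with DRAGEN against the Ensembl mouse genome, and the deposited values are their estimated counts for each gene and library, with no normalization. The table held 55774 entries for 55487 identifiers, and repeated entries were used once. A second table, with the authors' CPM, log2 fold changes and p-values, was not used.

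Estimated counts were rounded, although whole counts had been assumed when the tests were chosen. The 8984 genes with at least 5 CPM in at least 3 libraries were tested with edgeR 4.0.16 (R 4.3.3; TMM factors, quasi-likelihood test, genotype as only term, all 12 libraries), with Benjamini-Hochberg adjustment over all genes tested. The SE is the log2 fold change over the root of F. The procedure was tested on simulated data. Annotation and transcripts were GENCODE M21 (GRCm38), matched by identifier. Parents were matched with blastn 2.17.0 (identity of at least 80%, coverage of at least 50%, e-value of at most 1e-20). Alternatives used other scalings, filters, libraries and DESeq2 1.42.0. Members, classes and lists were chosen with earlier results of these data known. Named genes are the 10 members with the highest mean CPM, up to 5 rises and 5 falls past both thresholds per comparison, their parents, the 3 genes on each side of the CPM rule, and *Trpm3*, and other genes are marked. Replicate numbers did not pair the libraries: deviations of same-numbered libraries correlated from -0.26 to 0.21 over 18 pairs, and others from -0.23 to 0.26 over 36.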

Additional observations from a re-analysis of the deposited data

How the results depend on the processing

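Of 21 alternatives, 20 kept the count of members past both thresholds within 1.5 times in *Trpm3*-KO vs WT, 19 each did so in *Trpm3*-M/M vs WT and *Trpm3*-M/M vs *Trpm3*-I/M, and 8 in *Trpm3*-I/M vs WT, where *Gm7049* lay at FC 2. Over the fits that leave out a library, the count ran from 12 to 15 in *Trpm3*-KO vs WT, from 1 to 3 in *Trpm3*-I/M vs WT, from 5 to 9 in *Trpm3*-M/M vs WT, and from 1 to 4 in *Trpm3*-M/M vs *Trpm3*-I/M, the lowest without *Trpm3*-M/M replicate 3. With library size only, 21 members were called in *Trpm3*-M/M vs WT in place of 6, beside a shift of the median of all genes by 0.50. With FDR ≤ 0.05 alone the counts were 20 in *Trpm3*-KO vs WT, 121 in *Trpm3*-M/M vs WT, 57 in *Trpm3*-I/M vs WT and 88 in *Trpm3*-M/M vs *Trpm3*-I/M. The count in *Trpm3*-I/M vs WT was 1 in 8 of the 12 fits that leave out a library, and with a CPM of at least 1, TMM without crystallins, only the genotypes compared, or the replicate block. With no filter on low counts (32253 genes) the prior degrees of freedom were estimated as infinite, against 4.87 with the filter, so a gene's own spread no longer entered its test, and the counts of 15 in *Trpm3*-KO vs WT, 8 in *Trpm3*-M/M vs WT, 2 in *Trpm3*-I/M vs WT and 6 in *Trpm3*-M/M vs *Trpm3*-I/M say nothing of stability. The replicate block gave 13, 8, 1 and 4 calls in *Trpm3*-KO, *Trpm3*-M/M and *Trpm3*-I/M vs WT and *Trpm3*-M/M vs *Trpm3*-I/M, where the numbers do not pair the libraries. Of 25 calls of single members, *Gm10240* in *Trpm3*-KO vs WT was lost with only the genotypes compared (FDR = 0.0669), without each *Trpm3*-KO library in turn (FDR = 0.0537 to 0.109) and without WT replicate 2 (FDR = 0.0869), and the cause was not tested. *Dynlt1-ps1* fell just short of FC 2 with library size only (-0.99). None of the 25 reversed.

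The members' share of reads outside the crystallins differed from WT by -0.207 percentage points in *Trpm3*-I/M and by -0.245 in *Trpm3*-M/M, where their share of all reads differed by 0.0049 and 0.114. In *Trpm3*-KO the difference was -0.649 points outside the crystallins and -0.083 without *Gm6166*. Leaving out a library moved the difference in share of all reads from -0.243 to -0.201 in *Trpm3*-KO, from -0.0098 to 0.032 in *Trpm3*-I/M and from 0.099 to 0.141 in *Trpm3*-M/M. The difference of *Trpm3*-I/M from WT turned negative without *Trpm3*-I/M replicate 1 (-0.0060) or 2 (-0.0042) and WT replicate 1 (-0.0098) or 2 (-0.0076). The median share of a pair in WT was 12.05% with parents named by the symbol only, against 12.8%. Depth limits the members at a count of 0, such as the *Timm23* copies, where up to 3 reads are allowed.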
